A study of Mus musculus with 9 samples.

Results

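Complement components and regulators were examined as a set of 9 genes, C1ra, C1s1, C2, C3, C4b, Cfb, Cfd, Serping1 and Cd55, out of 55471 genes listed in the mouse RNA sequencing (RNA-seq) files. A gene entered the set when its Ensembl identifier mapped to 1 of these 9 symbols, whatever its values. The 9 symbols were themselves chosen with earlier results of these data known. Shares of the set given beside those of all genes are therefore descriptions, not an independent test. Of the 9, 8 had enough reads to be tested, and Cfd was listed at 0 reads in every culture.

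The cells were primary articular chondrocytes taken from the knee cartilage of wild-type mice at postnatal day 5, grown with 10% fetal bovine serum. There were 3 groups of 3 cultures. The Ad-Control group was infected with a control adenovirus, the Ad-OSCAR group with an adenovirus encoding the collagen receptor OSCAR (osteoclast-associated receptor), and the Ad-OSCAR + 5-ASA group with the same OSCAR virus followed by 5-aminosalicylic acid (5-ASA), an anti-inflammatory drug. According to the labels, cells were cultured for 3 days, exposed to virus for 2 h at a multiplicity of infection of 400, and kept for 36 h before the drug. The study's methods instead give 2 days of culture and another multiplicity, then 24 h with or without 10 µM 5-ASA. The methods also place all cultures on plates coated with a collagen peptide that binds OSCAR, without IL-1β. Every group therefore carried a virus, no group was uninfected, and no Ad-Control culture received 5-ASA, so the effect of the drug in cells without the OSCAR virus was not measured. The labels do not say whether the cultures came from separate animals, so p-values measure the spread between these cultures, which may be technical.

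Depth ran from 19733448 to 28192740 assigned reads per culture. Oscar, the gene carried by the virus, had 3 to 4 reads per Ad-Control culture and 6354 to 7112 CPM (counts scaled to a common library size) in Ad-OSCAR cultures. In the 5-ASA-treated cultures Oscar was at 2946 to 3723 CPM, a fall of 0.97 on the log2 scale from untreated Ad-OSCAR. The cell type was checked against 12 chondrocyte markers, which were all read in Ad-Control. All 12 were lower in Ad-OSCAR, and their summed level went from 43406 to 49335 CPM in Ad-Control to 3119 to 3522 CPM in Ad-OSCAR and 3998 to 4469 CPM with 5-ASA. In bulk RNA, fewer cells of a type and less RNA per cell cannot be told apart. The part that the chondrocyte markers and the virus level have in the results that follow was not tested.

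Complement is a cascade of plasma and tissue proteins that tags surfaces and can end in a pore in the target membrane. In the classical pathway C1q carries the proteases C1r and C1s, of which C1s cleaves C4 and C2. In the alternative pathway factor D cleaves factor B bound to C3b. Both pathways form convertases that cleave C3. C1 inhibitor, encoded by Serping1, blocks C1r and C1s, and CD55 takes convertases apart on the cell surface. Chondrocytes and synovial cells are known to make several complement proteins, and complement is found in joints with osteoarthritis.

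The genes lie in a few clusters on the GRCm38 genome. C1ra (ENSMUSG00000055172.10, chromosome 6, 124512405 to 124523443, plus strand) and C1s1 (ENSMUSG00000038521.17, chromosome 6, 124530345 to 124542359, minus strand) are 6901 bases apart. On chromosome 17, Cfb (ENSMUSG00000090231.10, 34856374 to 34862518, minus strand) ends 85 bases from C2 (ENSMUSG00000024371.14, 34862604 to 34898265, minus strand), and C4b (ENSMUSG00000073418.4, 34728380 to 34743882, minus strand) lies in the same region. C3 (ENSMUSG00000024164.15) is on chromosome 17 at 57203970 to 57228136, minus strand. Serping1 (ENSMUSG00000023224.12) is on chromosome 2 at 84765387 to 84775444, minus strand, Cd55 (ENSMUSG00000026399.12) on chromosome 1 at 130439027 to 130462744, minus strand, and Cfd (ENSMUSG00000061780.6) on chromosome 10 at 79890853 to 79892655, plus strand.

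RefSeq start-site windows, 250 bases before to 50 bases after each start, were matched for 5 of the 9 genes (C1ra, C1s1, C3, Cd55 and Cfd) and not for C2, C4b, Cfb and Serping1. The windows of C3 and C1s1 are shown because both genes rose in both steps of the experiment, with OSCAR and again with 5-ASA, and because the start used falls on the start of the gene in the annotation. RefSeq also lists a C1s1 start 38 bases inside the gene, whose window holds only 1 of the C/EBP-form matches. Capitals mark matches, on either strand, to TTNNGNAA (the form searched for C/EBP, a factor family known for acute-phase genes). In C3 they also mark TATAAA, the form searched for the TATA box, a core promoter element. This TATAAA begins 14 bases after the C3 start used, not before it. Both sequences are GRCm38.p6, minus strand, 5′ to 3′, from chr17:57228087-57228386 for C3 and chr6:124542310-124542609 for C1s1.
C3: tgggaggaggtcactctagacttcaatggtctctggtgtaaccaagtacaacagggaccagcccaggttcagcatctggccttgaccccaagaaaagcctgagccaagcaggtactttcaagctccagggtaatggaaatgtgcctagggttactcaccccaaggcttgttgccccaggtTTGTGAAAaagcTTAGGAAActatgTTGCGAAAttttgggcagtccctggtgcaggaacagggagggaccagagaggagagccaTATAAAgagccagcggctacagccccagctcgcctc
C1s1: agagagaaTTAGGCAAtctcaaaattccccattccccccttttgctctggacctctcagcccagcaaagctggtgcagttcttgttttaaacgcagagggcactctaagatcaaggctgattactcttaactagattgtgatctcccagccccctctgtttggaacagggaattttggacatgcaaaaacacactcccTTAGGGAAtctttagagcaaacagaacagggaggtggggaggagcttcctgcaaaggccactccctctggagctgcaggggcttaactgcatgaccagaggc

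The C3 window held 3 C/EBP-form matches, beginning 70, 58 and 45 bases before the start, and the C1s1 window held 2, beginning 242 and 52 bases before it. The C1ra window, whose RefSeq start lies 216 bases inside the annotated gene, held 3 C/EBP-form matches and 1 match to TTCNNNGAA (the form searched for STAT). Of these, 1 C/EBP-form match and the STAT-form match begin 16 and 32 bases after that start. C1ra fell and C3 rose with OSCAR, and the part of these matches in either was not tested. No letters of the 7 motifs searched were found in the Cd55 or Cfd window. Of all 32851 start-site windows, 40.7% held the C/EBP form, 13.6% TATAAA and 8.30% the STAT form. The other forms searched were TGANTCA (AP-1, in 7.81% of windows) and, by name, an IRF element (in 3.44%), a PPAR-RXR element (in 0.0396%) and the NF-kB consensus (in 4.51%). These matches are letters in a window, not measured binding sites.

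With OSCAR, genes of the set went in both directions, as did all genes tested. Of the 8 genes tested, 5 were higher in Ad-OSCAR than in Ad-Control (C1s1, C2, C3, Cfb and Cd55) and 3 were lower (C1ra, C4b and Serping1), by edgeR's quasi-likelihood test at a Benjamini-Hochberg adjusted p under 0.05. The background was high: 32.7% of all 15362 genes tested were higher and 32.2% were lower by the same test. The cultures of the 2 groups did not overlap for any of the 8 genes, where 35.0% of all genes did not overlap with Ad-OSCAR higher and 34.0% with Ad-OSCAR lower. The median log2 fold change of the 8 genes was 0.40, against 0.02 over all genes. By the cut-off the study used for OSCAR (adjusted p under 0.05 and a log2 fold change past 1.5 in size), none of the 8 was called by edgeR or by DESeq2, against 4.57% of all genes called higher and 5.39% lower by edgeR, since the sizes ran from 0.31 to 1.17.

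With 5-ASA, 7 of the 8 genes were higher than in untreated Ad-OSCAR and Cd55 was not called. None was lower, either by edgeR's adjusted p, by its unadjusted p under 0.05 or by DESeq2. The background here was 10.4% higher and 7.38% lower. The same 7 genes did not overlap between the groups, where 17.8% of all genes did not overlap with the treated cultures higher and 16.1% with them lower. The median log2 fold change was 0.50, against 0.00 over all genes. The study's methods word its 5-ASA criteria (fold above 1.5 and unadjusted p under 0.05) for treated cultures against Ad-Control. Applied here to treated against untreated cultures, they called 2.27% of all genes higher and 1.87% lower by edgeR, with C4b and Serping1 the 2 of the set called higher, while the same criteria on DESeq2 called 3. The fold of C1ra was 1.497, just under that limit.

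Set against Ad-Control, the 5-ASA-treated cultures had 5 genes higher and 2 lower, with a background of 31.4% higher and 31.8% lower. All 7 also did not overlap between these groups, where 33.4% of all genes did not overlap with the treated cultures higher and 33.2% with them lower. The 5 were C1s1, C2, C3, Cfb and Cd55. By the study's 5-ASA criteria, worded for this comparison, the same 5 were called higher by edgeR and none lower by edgeR or DESeq2, against 14.6% of all genes called higher and 15.3% lower by edgeR. The 2 lower genes, C1ra and C4b, were close to the threshold, and neither was called without Ad-Control culture 1 or without 5-ASA-treated culture 2. The 3 comparisons share cultures, so the values are given side by side for each gene below.

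**Figure D1:**
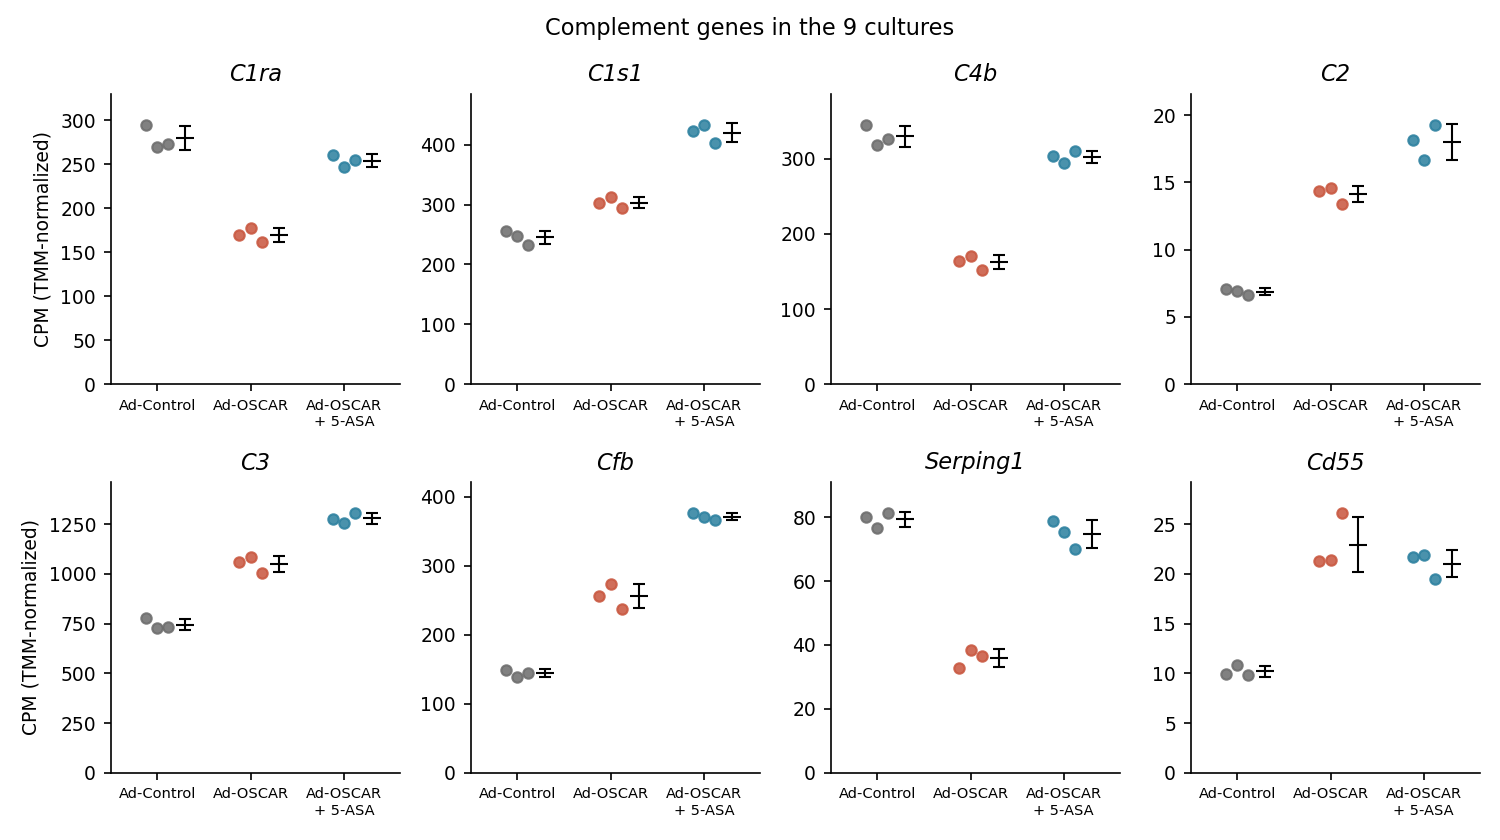
Normalized CPM (linear axis from 0) of the 8 complement genes read, with 1 point per culture for the 3 groups of 3 cultures; the black bar beside each group is the mean ± SD. C3, Cfb, C2 and C1s1 step up from Ad-Control to Ad-OSCAR and again with 5-ASA, C1ra, C4b and Serping1 dip in Ad-OSCAR, and Cd55 stays high with 5-ASA.

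C3, the protein on which all complement pathways converge, had the highest mean TPM of the set in every group. It was at 777, 727 and 732 CPM in the Ad-Control cultures, 1059, 1083 and 1004 CPM in Ad-OSCAR, and 1277, 1254 and 1305 CPM with 5-ASA. The 3 groups formed 3 separate steps. The log2 fold change was 0.49 ± 0.04 (SE) with OSCAR (edgeR adjusted p = 9.94e-09) and a further 0.29 ± 0.04 with 5-ASA (edgeR adjusted p = 0.000109). From Ad-Control to the treated cultures the rise was 1.72-fold.

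Cfb encodes factor B, which supplies the protease of the alternative pathway convertase. Its level was 149, 139 and 145 CPM in Ad-Control, 257, 273 and 238 CPM in Ad-OSCAR, and 376, 370 and 367 CPM with 5-ASA, again without overlap at either step. The log2 fold change was 0.83 ± 0.05 with OSCAR (edgeR adjusted p = 8.93e-11) and 0.54 ± 0.05 with 5-ASA (edgeR adjusted p = 7.34e-07). The treated cultures stood 2.57-fold above Ad-Control.

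C2, the classical pathway counterpart of factor B and its neighbour on chromosome 17, had the lowest mean TPM of the 8 genes read. It had 7.08, 6.94 and 6.61 CPM in Ad-Control, 14.4, 14.6 and 13.4 CPM in Ad-OSCAR and 18.1, 16.6 and 19.3 CPM with 5-ASA. The groups kept the same order as those of Cfb. The log2 fold change was 1.04 ± 0.09 with OSCAR (edgeR adjusted p = 6.21e-09) and 0.35 ± 0.07 with 5-ASA (edgeR adjusted p = 0.00274). The second step was not called on TPM, the length-scaled share of transcripts, where limma gave adjusted p from 0.347 to 0.403, and in TPM the treated and untreated cultures of C2 overlapped.

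C1s1 and C1ra encode the paired proteases of the C1 complex, and they moved apart with OSCAR. C1s1 was at 256, 247 and 233 CPM in Ad-Control, 303, 313 and 294 CPM in Ad-OSCAR and 423, 433 and 402 CPM with 5-ASA. C1ra was at 295, 270 and 273 CPM in Ad-Control, 170, 178 and 162 CPM in Ad-OSCAR and 261, 246 and 255 CPM with 5-ASA. C1s1 thus rose at each step, whereas C1ra was lowest in all 3 Ad-OSCAR cultures and came close to Ad-Control with the drug. With OSCAR the log2 fold change of C1s1 was 0.31 ± 0.05 (edgeR adjusted p = 1.64e-05) and that of C1ra was -0.72 ± 0.05 (edgeR adjusted p = 3.41e-10). With 5-ASA both rose, C1s1 by 0.47 ± 0.05 (edgeR adjusted p = 1.61e-06) and C1ra by 0.58 ± 0.05 (edgeR adjusted p = 2.34e-07). Against Ad-Control the treated cultures were higher in C1s1 by 0.78 and lower in C1ra by a log2 fold change of -0.14 (edgeR adjusted p = 0.0207).

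C4b encodes C4, the substrate of C1s that starts the classical and lectin convertase. Its level was 345, 318 and 326 CPM in Ad-Control, 164, 171 and 152 CPM in Ad-OSCAR and 304, 294 and 310 CPM with 5-ASA. The Ad-OSCAR cultures were far below both other groups, with a log2 fold change from Ad-Control of -1.02 ± 0.05 (edgeR adjusted p = 2.78e-12), and the drug-treated cultures were 1.87-fold above them (edgeR adjusted p = 4.89e-09). The remaining difference from Ad-Control was -0.12 (edgeR adjusted p = 0.0374), which passed in only 12 of 20 alternative settings. In TPM the treated cultures (124 to 138) overlapped those of Ad-Control (137 to 147).

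Serping1 is the inhibitor of C1r and C1s. It was at 79.9, 76.7 and 81.2 CPM in Ad-Control, 32.8, 38.3 and 36.5 CPM in Ad-OSCAR, and 78.7, 75.2 and 69.998 CPM with 5-ASA. The Ad-OSCAR cultures lay apart from all others, and in CPM the treated cultures overlapped those of Ad-Control. Its log2 fold change was -1.14 ± 0.06 with OSCAR (edgeR adjusted p = 6.94e-12) and 1.06 ± 0.06 with 5-ASA (edgeR adjusted p = 4.89e-09). Against Ad-Control the treated cultures differed by -0.09 ± 0.06, which was not called (edgeR adjusted p = 0.198). In TPM as deposited, the treated cultures (78.5 to 84.1) lay below Ad-Control (88.5 to 91.8), and limma called that difference, as given below.

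Cd55, the membrane regulator, was the only gene of the 8 tested that was not called with 5-ASA. It had 9.91, 10.8 and 9.83 CPM in Ad-Control, 21.3, 21.4 and 26.1 CPM in Ad-OSCAR and 21.7, 21.9 and 19.4 CPM with 5-ASA. Ad-OSCAR cultures were 2.24-fold above Ad-Control (edgeR adjusted p = 2.23e-09). The treated and untreated cultures overlapped, with a log2 fold change of -0.12 ± 0.08 (edgeR adjusted p = 0.326).

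Cfd encodes factor D (adipsin), the protease that activates factor B. It had 0 reads in all 9 cultures, and a count of 0 allows up to 3 reads per culture for counting error alone. Adipoq, a defining adipocyte marker, had at most 2 reads in any culture. Fabp4, also on the list of adipocyte markers, had up to 920 reads and was higher with OSCAR.

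**Figure D2:**
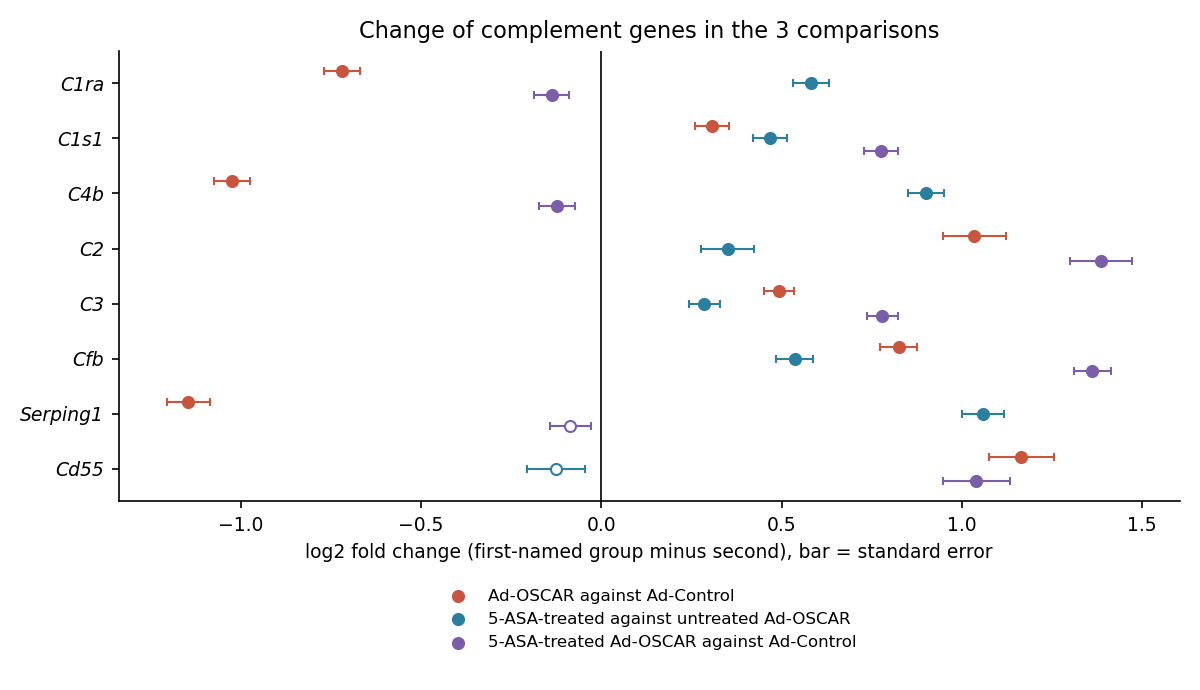
Log2 fold change (horizontal axis) with its standard error for each of the 8 genes in the 3 comparisons; filled points passed the edgeR test at an adjusted p under 0.05 and open points did not. C1ra, C4b and Serping1 lie left of 0 with OSCAR and right of 0 with 5-ASA, and the open points are Cd55 with 5-ASA (-0.12) and Serping1 against Ad-Control (-0.09).

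Levels can be compared between genes in TPM, which divides by transcript length. In Ad-Control the order of mean TPM was C3 (248 ± 8.46, SD, n = 3), C1s1 (188 ± 11.6), C1ra (165 ± 7.53), C4b (141 ± 5.84), Cfb (118 ± 1.13), Serping1 (90.3 ± 1.64), Cd55 (7.42 ± 0.53) and C2 (5.36 ± 0.64), and no neighbours in this order overlapped. In Ad-OSCAR, Cfb moved up to 228 ± 11.4 TPM, above C1ra (102 ± 3.02) and C4b (78.6 ± 4.05), and again no neighbours overlapped. With 5-ASA, C3 was at 406 ± 13.9 TPM, while C1s1 (306 ± 10.2) and Cfb (302 ± 9.55) overlapped, as did C1ra with C4b and Cd55 with C2. The sum over the set was 938 to 997 TPM in Ad-Control, 1049 to 1106 TPM in Ad-OSCAR and 1373 to 1417 TPM with 5-ASA.

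The balance within the set differed between the groups, given here as ratios of TPM without a test. C1s1 over C1ra was 1.14 ± 0.06 in Ad-Control, 2.43 ± 0.02 in Ad-OSCAR and 2.14 ± 0.14 with 5-ASA. The inhibitor over 1 of its 2 targets, Serping1 over C1s1, was 0.481 ± 0.032, 0.166 ± 0.013 and 0.265 ± 0.011 in the same order. Its ratio over the other target, C1ra, was not calculated. C1ra itself was at a mean of 165, 102 and 143 TPM, and Serping1 at 90.3, 41.1 and 80.9 TPM. C3 over C4b was 1.76 ± 0.01, 4.54 ± 0.11 and 3.08 ± 0.10. Each of these ratios was thus farther from Ad-Control in Ad-OSCAR than in the treated cultures, and the 3 groups did not overlap in any of them. Cfb over C2, the 2 neighbouring convertase proteases, was 22.2 ± 2.31, 19.3 ± 2.17 and 22.6 ± 1.84. The range of Ad-Control overlapped those of both other groups, whereas Ad-OSCAR (16.8 to 20.6) and the treated cultures (21.2 to 24.7) did not overlap. TPM is a share of all transcripts, and 1 other gene, the acute-phase gene Saa3, took 31153 to 32169 TPM in Ad-Control, 126865 to 133426 TPM in Ad-OSCAR and 143082 to 151559 TPM with 5-ASA. The ratios do not depend on that share, but the TPM levels do.

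**Figure D3:**
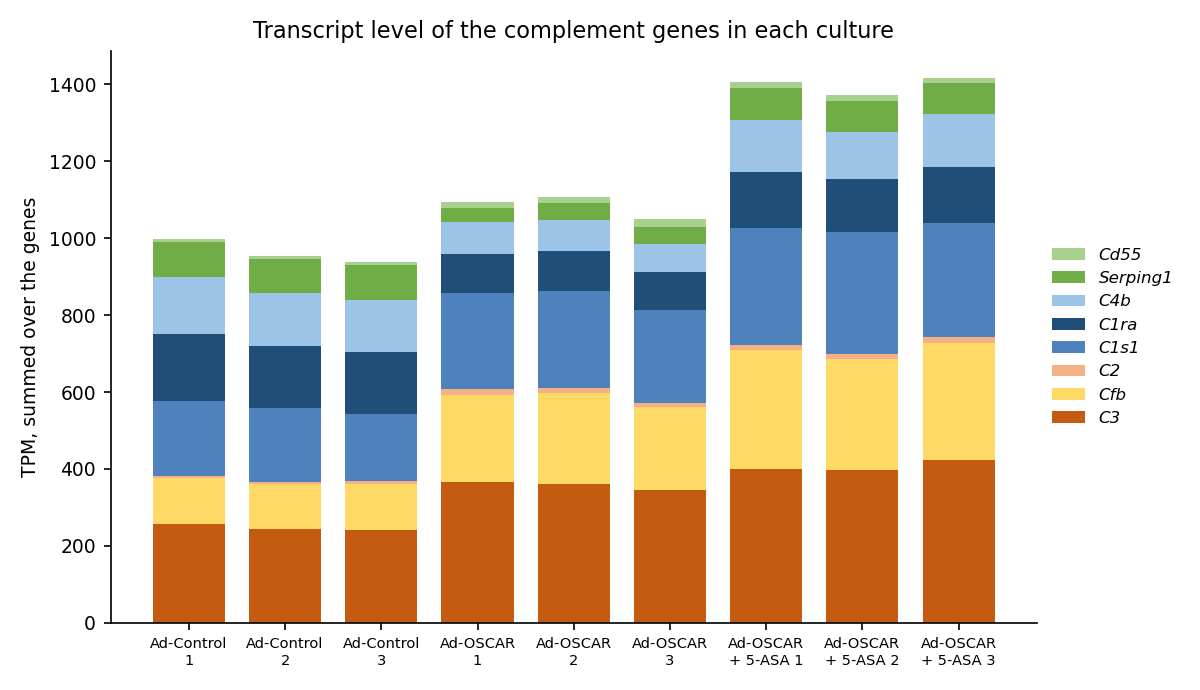
TPM of the 8 genes stacked for each of the 9 cultures (bars from 0, colours by gene). The bars reach 938 to 997 TPM in Ad-Control, 1049 to 1106 TPM in Ad-OSCAR and 1373 to 1417 TPM with 5-ASA, and C3 makes up 25.7%, 32.9% and 29.1% of the sum on average.

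Some of these genes have near copies with which reads can be shared, so their values carry that uncertainty. Of the 100-base stretches of the longest coding transcript, 34.5% of C1ra were found in C1rb, 16.5% of C4b in C4a, 7.90% of C1s1 in C1s2 and 6.86% of Cd55 in Cd55b. C1rb, at 11.3 to 12.7 CPM in Ad-Control, moved as C1ra did, with log2 fold changes of -0.50 with OSCAR (edgeR adjusted p = 5.21e-05) and 0.39 with 5-ASA (edgeR adjusted p = 0.00317). C1s2, at 20.6 to 23.1 CPM in Ad-Control, rose at both steps as C1s1 did, by 0.43 and 0.39. C4a, at 4.31 to 4.44 CPM in Ad-Control, differed from C4b: its log2 fold change was 0.19 with OSCAR and 0.16 with 5-ASA, and neither passed the edgeR test (adjusted p = 0.191 and 0.408). Adding each copy to its partner changed no call of the set in any of the 3 comparisons. Of the genes that overlap the set, the antisense Gm16567 at C1s1 was at 0 and Gm16083 at Cd55 had at most 2 reads. Zbtb12, on the strand opposite C2, had 140 to 266 reads per culture against 125 to 488 for C2. The strand setting of the counting was not given in the sources used here, so reads of C2 and Zbtb12 in their overlap may not be told apart. Gm20547, on the same strand over both Cfb and C2, had at most 16.3 estimated reads.

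The length of the transcripts to which reads were assigned also differed for part of the set. This length is the mean over a gene's annotated transcripts, weighted by their estimated abundance. For C4b it was 4035, 4011 and 4099 bases in Ad-Control, 3593, 3677 and 3684 in Ad-OSCAR and 3709, 3885 and 3775 with 5-ASA. The longest annotated C4b transcript has 5379 bases, and the other 2, labelled nonsense-mediated decay and retained intron, have 763 and 749 bases. The 3 groups of C4b did not overlap, and the mean in Ad-OSCAR differed from that in Ad-Control by -9.80%. For C1s1 the mean was 2335 ± 35.5 bases in Ad-Control, 2242 ± 13.4 in Ad-OSCAR and 2349 ± 21.7 with 5-ASA, where Ad-OSCAR lay apart from both others. For Cfb it was 2203 ± 64.4 bases in Ad-Control and 2076 ± 15.6 in Ad-OSCAR, also without overlap. In each of these differences the two-sided exact permutation p was 0.1, the smallest that 3 against 3 cultures allow, and 0.35 after adjustment over the 21 length comparisons, so none passed. C2, C3, Serping1 and Cd55 overlapped between all groups, and C1ra has 1 annotated transcript.

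**Figure D4:**
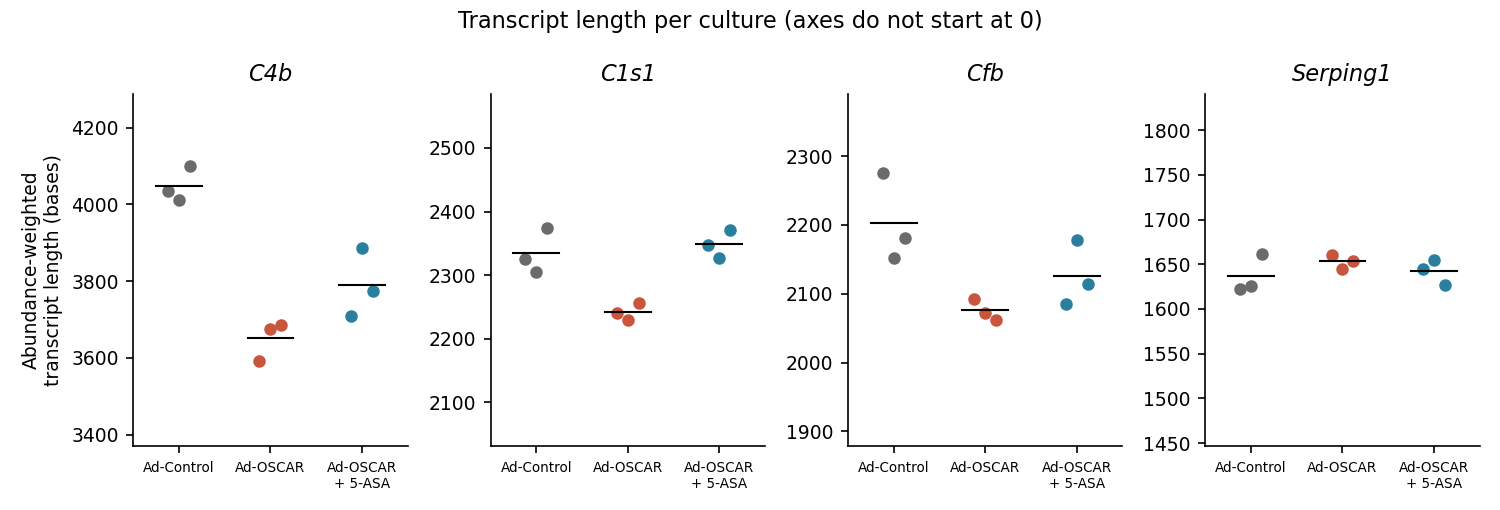
Abundance-weighted transcript length in bases (vertical axes do not start at 0, and each spans 12% either side of the gene's mean) with 1 point per culture and a line at each group mean. C4b separates into 3 levels (means 4048, 3651 and 3790 bases), C1s1 is shortest in Ad-OSCAR (2242 bases) and Serping1 overlaps between all groups.

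Neighbouring genes gave a local comparison. Cfb and C2 rose together, but the gene on the other side of Cfb, Nelfe, 1 base away, was not called in any comparison, nor was Ehmt2, 203 bases from C2. Gpr108 and Tnfsf9, 6498 and 96212 bases from C3 on either side, were not called either. Tnxb, which encodes the matrix protein tenascin-X next to C4b, had a log2 fold change of -2.22 with OSCAR (edgeR adjusted p = 4.94e-13), and its 0.15 with 5-ASA was not called (edgeR adjusted p = 0.403), whereas C4b rose. Ube2l6, 23383 bases from Serping1, rose with OSCAR by 0.74 (edgeR adjusted p = 4.35e-06), opposite to Serping1. It also rose by 0.28 with 5-ASA (edgeR adjusted p = 0.0356), where Serping1 rose too. On the other side of C4b, Stk19, 80110 bases away, rose with OSCAR by 0.30 (edgeR adjusted p = 0.00312), opposite to C4b. It was not called with 5-ASA. C1rl, next to C1ra, had a log2 fold change of -0.24 with OSCAR (edgeR adjusted p = 0.0315).

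The genes with the pattern most like each of the set were found by the root mean square difference of centred log2 CPM over the 9 cultures, among 13267 genes with a mean of at least 1 CPM. C3 was closest to Zfp647 (difference 0.04), C2 to Pla1a (0.05), Cfb to Lamb1 (0.05), C1ra to Selp (0.06), C1s1 to Bmper (0.06) and Cd55 to Bicd1 (0.07). For C4b it was Col8a2 (0.09) and for Serping1 Apln (0.09). Apln was also second for C4b, and Angptl4 was second for both C2 and Cfb.

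A list of 53 other complement genes was read to place the set in its pathway. Of these, 13 had 0 reads in every culture, 27 (these 13 included) had at most 3 reads in each culture, and 23 were tested. With OSCAR 10 of the 23 were higher and 7 lower, with a median log2 fold change of 0.23. With 5-ASA 8 were higher and none was lower by edgeR's adjusted p or by DESeq2, whereas 9 were higher and 3 lower at an unadjusted p under 0.05 by edgeR, with a median of 0.16. The background of all genes is that given above.

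Among the genes that start the cascade, C1qa, C1qb and C1qc, which encode the recognition subunits of C1, had 0 reads in all 9 cultures. Of the 9 tested starters and their relatives, 6 rose and 2 fell with OSCAR. Ptx3, a secreted pentraxin that binds C1q, had the highest TPM of these, 790 to 836 TPM in Ad-Control. It was at 816 to 857 CPM in Ad-Control, 1070 to 1137 CPM in Ad-OSCAR and 1574 to 1790 CPM with 5-ASA. It rose 1.53-fold with the drug (edgeR adjusted p = 1.04e-07). Masp1, a lectin pathway protease, rose with OSCAR by 0.66 on the log2 scale (edgeR adjusted p = 5.1e-09) and was not called with 5-ASA, where its log2 fold change was -0.08. Masp2, the lectin pathway protease that cleaves C4 and C2, was near 1 CPM, and its -0.61 with 5-ASA was not called (edgeR adjusted p = 0.09995). Fcna, the lectin ficolin A, rose with OSCAR by 2.30 from 9 to 11 reads per culture in Ad-Control. Colec12, a scavenger receptor of the collectin family, fell by 0.69 with OSCAR and rose by 0.19 with 5-ASA.

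In the alternative pathway Cfp (properdin, which stabilizes the C3 convertase) rose with OSCAR by 0.79, from 1.56 to 2.14 CPM in Ad-Control. The terminal pathway was hardly read: 5 of its 7 genes had at most 3 reads in each culture, and the other 2, C6 and C8g, stayed at or below 1.08 CPM and passed the test in no comparison, by edgeR's adjusted or unadjusted p or by DESeq2.

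Among 9 tested regulators 1 rose (Csmd3, from at most 9 reads per Ad-Control culture to 20 to 25) and 5 fell with OSCAR, and 4 rose with 5-ASA. Clu encodes clusterin, a secreted inhibitor of the membrane attack complex. It was at 133 to 155 CPM in Ad-Control, 28.9 to 35.1 CPM in Ad-OSCAR and 44.0 to 47.5 CPM with 5-ASA, with a log2 fold change of -2.20 ± 0.07 (edgeR adjusted p = 4.85e-15) and then 0.52 ± 0.07 (edgeR adjusted p = 4.92e-05). With the drug it thus remained 3.20-fold below Ad-Control. Cd59a, which blocks the membrane pore, had log2 fold changes of -0.36 and 0.30, and Cr1l (Crry), a membrane regulator of rodents, of -0.36 and 0.18, each passing the test at both steps. Cd59a, Cr1l, Clu and Csmd1 therefore shared the direction of Serping1 at both steps, while Cd55 was higher with OSCAR. Cfi, the protease factor I, fell with OSCAR, but from 13 to 20 reads per culture to 4.

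The receptors were at low levels. Only Itgb2, the shared beta chain of complement receptors 3 and 4, and Cd93 were tested, and both rose with OSCAR, by 1.75 and 1.63 on the log2 scale, from 0.519 to 0.575 CPM and from 1.44 to 1.64 CPM. The macrophage markers, whose cells carry Itgb2, summed to 17.5 to 20.4 CPM in Ad-Control, 36.8 to 37.4 CPM in Ad-OSCAR and 30.5 to 32.0 CPM with 5-ASA. Of the 10 markers, 4 had at most 3 reads in each culture, with Cd163 at 0, Adgre1 at most 3 and Ptprc at most 2. Of the 5 tested, Cd68, Cd14 and Lyz2 rose and Mrc1 fell with OSCAR, and Cd68 and Cd14 fell with 5-ASA. The 6 neutrophil markers summed to 3.29 to 3.73 CPM in Ad-Control, 18.04 to 21.4 CPM in Ad-OSCAR and 18.5 to 18.9 CPM with 5-ASA, and these reads came almost all from Camp and S100a8, with S100a9 at 0 and Ly6g, Mpo and Elane at most 2 reads. The 6 endothelial markers summed to 0.581 to 1.23 CPM, 4.51 to 5.53 CPM and 2.23 to 2.73 CPM in the same order, mostly from Tek and Vwf, which both rose with OSCAR and fell with 5-ASA, while Cdh5 had at most 2 reads. The adipocyte list gave 1 tested gene, Fabp4, at 10.8 to 14.7 CPM in Ad-Control, 28.1 to 31.2 CPM in Ad-OSCAR and 26.9 to 31.2 CPM with 5-ASA, and 4 of its 6 genes, Adipoq included, had at most 3 reads in each culture. Fibroblast markers summed to 19643 to 20717 CPM in Ad-Control, 14353 to 15273 CPM in Ad-OSCAR and 17442 to 18565 CPM with 5-ASA. Of these 9 markers, 6 fell with OSCAR and 3 rose (Col3a1 by 0.72, Dcn by 1.10 and Pdpn by 1.29 on the log2 scale), and with 5-ASA 7 rose, Pdpn fell by 0.26 and 1 was not called. The part of these cell types in the complement results was not tested.

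**Figure D5:**
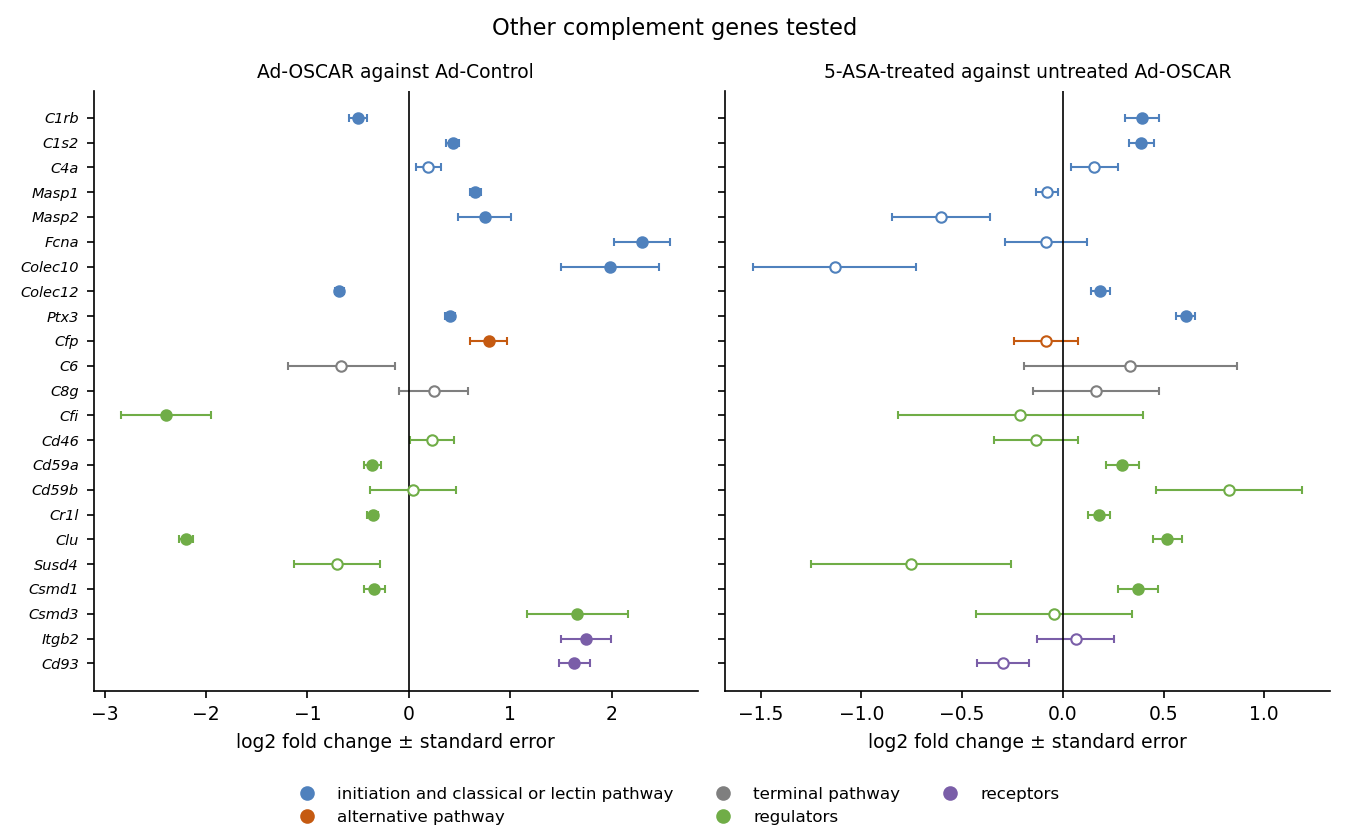
Log2 fold change with standard error of the 23 other complement genes tested, coloured by role, for OSCAR (left) and 5-ASA (right, on a narrower scale); filled points passed the edgeR test. With OSCAR 10 are higher and 7 lower, Clu (-2.20) and Cfi being the lowest, and every filled point lies above 0 with 5-ASA.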

How the data were processed

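Per the labels and the study's methods, stranded mRNA libraries were sequenced from 2 ends with 100-base reads and trimmed with BBDuk. The submitters' processing notes name FastQC, STAR 2.7.1a and RSEM 1.3.1 with GRCm38 (mm10). The authors deposited 1 gene table per culture with RSEM expected counts, TPM and an abundance-weighted transcript length in bases. The counting's strand setting was not given in the sources used here. Of 55471 genes, 55230 matched GENCODE M21 by identifier, which gave symbols and coordinates.

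Expected counts were rounded and tested with edgeR 4.0.16 (quasi-likelihood F test, TMM scaling, filterByExpr, prior count 2 for log2 CPM) in 1 fit of the 9 cultures with group as the only factor, leaving 15362 genes and 6 residual degrees of freedom. P-values were adjusted by Benjamini-Hochberg over all genes tested, with a threshold of 0.05. Alternatives were DESeq2 1.42.0, limma 3.58.1 on log2(TPM + 0.1) or log2(TPM + 1), other filters and scalings, a replicate block and leaving out each culture. The scripts were tested on simulated data with 200 changed genes. Each TPM was used as deposited, except in an alternative rescaled without Saa3. The constant added before taking log2 shrinks the fold changes of low genes. Transcript lengths were compared by two-sided exact permutation tests.

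The members and the gene lists were chosen with earlier results of these data known. Named genes were the 9 members, their near copies, Oscar, other complement genes past the study's criteria with a mean of at least 1 CPM or sharing a role with a member, the nearest tested coding gene on each side and the 2 genes most like each member. Masp1, Colec12, Cd59a, Cr1l and Csmd1 were named for their roles, and Cfi, Csmd3, Cd163, Adgre1, Ptprc, Saa3 and the other single cell type markers after their values were seen. Another complement gene is not reported here.

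Depth was 19733448 to 28192740 counts per culture, which limits genes with few reads. No pair of replicates of a group were alike within sampling noise (chi-square per degree of freedom 4.25 to 8.10).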

Additional observations from a re-analysis of the deposited data

How the results depend on the processing

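Over the alternatives run, the counts of 5 genes higher and 3 lower with OSCAR and of 7 higher with 5-ASA moved by over 1.5 times only under the study's own criteria, which gave 0 higher, 0 lower and 2 higher, since those criteria add a limit on fold (those for 5-ASA are worded by the study for treated cultures against Ad-Control). The count of 2 genes lower with 5-ASA than in Ad-Control was less stable. It was 0 by the study's criteria, which kept the count of 5 higher, 0 on TPM rescaled without Saa3 (an alternative chosen after seeing the data), and 0 to 2 when 1 culture was left out: 0 without Ad-Control 1 or 5-ASA-treated culture 2, and 1 without Ad-Control 3 or 5-ASA-treated culture 1. On that rescaled TPM, C4b turned to 0.10 (limma adjusted p = 0.186). That rescaling put the median log2 fold change of all genes at 0.19 with OSCAR (6289 higher and 3153 lower, against 5031 and 4952 in the count fit) and 0.12 against Ad-Control (5257 higher and 3258 lower). The cause was not tested. On TPM, Serping1 against Ad-Control passed the limma test (-0.16, adjusted p = 0.0422 and 0.0402), and C2 with 5-ASA did not (0.16 to 0.21), which left 6 genes higher. Over all genes, the TPM fit called 528 higher and 1337 lower with 5-ASA, against 1598 and 1134 in the count fit.

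The same replicate numbers did not pair the cultures: deviations of same-numbered cultures correlated between -0.0724 and 0.0402 over 9 pairs. With the replicate number as a block, 1 gene was lower with 5-ASA than in Ad-Control, since C4b had an adjusted p of 0.0504 by edgeR, and no other call of the set changed. Precision is limited for C2, Cd55 and the lowest complement genes, which rest on few reads, and leaving a group with 2 cultures assumes the shared spread.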
